A study of Mus musculus with 18 samples.

Results

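The keratin gene family was taken as every probe set paired with exactly 1 gene whose symbol is Krt followed by a number, with or without a letter after it. The keratin-associated proteins (Krtap) and Krtdap were left out. The rule, which uses names and no measured value, found 52 probe sets for 52 genes among the 35556 probe sets of the table, of which 23410 are paired with at least 1 gene. The family held 28 type I and 24 type II keratins, and 27 of the genes lie on mouse chromosome 11 and 25 on chromosome 15, Krt18 being the type I gene that lies with the type II cluster. Gene expression had been measured on Affymetrix Mouse Gene 1.0 ST arrays, which read RNA through short probes along each transcript, in 12 hindpaw epidermis samples and 6 samples of lumbar dorsal root ganglia (DRGs), with 3 arrays per group. Mutant mice were K14Cre-Trpa1 fl/fl and controls, which the labels call wild type, were K14Cre-Trpa1+/+, so that both genotypes carried Cre recombinase driven by the keratin 14 promoter. The mice were adult males of mixed background, and the colonies of the genotypes had been kept apart. Epidermis came from naive mice and from mice taken 2 days after hindpaw injection of complete Freund's adjuvant (CFA), which inflames the paw, and DRGs came from naive mice. No arrays of vehicle-injected skin were part of the design, so the injection itself and the adjuvant cannot be told apart.

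Keratins are the intermediate filament proteins of epithelial cells, and a filament is built from pairs of 1 type I and 1 type II keratin. Keratinocytes change pairs as they move outward, from keratins 5 and 14 in the dividing basal layer to keratins 1 and 10 above it, while keratins 6, 16 and 17 are known to appear in wounded or inflamed skin and keratin 9 marks the skin of palms and soles. Separate sets of keratins build the hair follicle, with type-specific pairs in the inner root sheath, the companion layer and the hair shaft, and keratins 8 and 18 are typical of simple epithelia and of the Merkel cells of the skin. The 52 genes were ordered by these sites into 3 basal, 6 suprabasal, 1 palmoplantar, 4 wound and stress, 5 simple epithelial, 4 mucosal and corneal, 9 inner root sheath and companion layer, 13 hair shaft and nail and 7 other keratins.

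All values are log2 signals as deposited, and a difference of 1 is a 2-fold change. Background was set on each array at the level that 95% of 1222 chemoreceptor probe sets (odorant, vomeronasal, trace amine) lay under, genes known to be expressed mainly in the nose. It was 4.57 to 4.79 in epidermis and 5.78 to 5.93 in DRGs, and 62.2% to 64.3% of probe sets exceeded it. Epidermis and DRG arrays had different medians and were treated as normalized apart. The arrays of a group correlated at 0.9857 or more over probe sets. Trpa1, the targeted gene, was below background on all 12 epidermis arrays. In DRGs it was at 8.89 to 9.08 in control and 8.44 to 8.84 in mutant mice. The sources used here do not place its probes relative to the deleted exons. All 22 keratinocyte markers measured outside the family exceeded background on every epidermis array, as did all 11 sensory neuron markers on every DRG array. RNA of the bulk tissue was measured, so a lower share of a cell type and less RNA per cell of that type cannot be told apart.

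In naive control epidermis, 45 of the 52 keratins were above background on all 3 arrays, and 44 were in naive mutant epidermis. The brightest were the keratins of interfollicular keratinocytes. Krt10, the type I partner of the suprabasal layers, read 13.33, 13.45 and 13.41 in naive control and 13.41, 13.45 and 13.42 in naive mutant epidermis. Krt1, its type II partner, read 13.08, 13.21 and 13.17 in control and 13.15, 13.29 and 13.17 in mutant. Both probe sets lay at a median percentile of at least 99.9 on the epidermis arrays, as did those of Krt2, a type II keratin of the upper spinous and granular layers, and Krt24, a type I keratin. Signals this close to the top of the scale can understate a rise. The basal pair Krt5 and Krt14 followed at a median percentile of 99.6, and Krt9 averaged 11.87 ± 0.14 (SD, n = 3) in naive control epidermis. Keratins of simple epithelia were dimmer. Krt8 averaged 7.75 ± 0.09 and Krt18 5.31 ± 0.07 in naive controls, while Krt7 averaged 6.83 ± 0.07 and Krt19 5.04, and Krt20, a keratin of gut lining and Merkel cells, was under background on all 12 epidermis arrays. Krt39, Krt74 and Krt76 were also below background on all 12, which makes 4 of the 52.

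No keratin passed the test for a difference between genotypes in naive epidermis. With limma and Benjamini-Hochberg adjustment over 23410 probe sets, 0 of the 52 passed an adjusted p of 0.05, against 0.0299% of all probe sets, and 1 was higher and 9 were lower at an unadjusted p under 0.05, against 8.94% of all probe sets in either direction. Krt5 differed by -0.02 (mutant minus control, 95% interval -0.16 to 0.11), Krt14 by -0.06 (-0.20 to 0.08), Krt1 by 0.05 (-0.12 to 0.22) and Krt10 by 0.03 (-0.12 to 0.18). Each of these 4 intervals lies within 0.22 of 0. All 6 suprabasal keratins had positive differences, the largest being that of Krt80 (0.24, adjusted p = 0.46 from limma), and Krt9 differed by 0.16 (-0.03 to 0.36).

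Of the 9 keratins lower in naive mutant epidermis at an unadjusted p, 3 were of the inner root sheath and companion layer, 3 of the hair shaft, 2 of the wound group and 1 of the others (Krt88). Krt25, a type I keratin of the inner root sheath, read 8.79, 8.47 and 8.50 in control and 8.22, 7.21 and 7.94 in mutant epidermis, a difference of -0.80 (interval -1.34 to -0.26, adjusted p = 0.46). Krt71, its type II counterpart, differed by -0.73 (adjusted p = 0.45) and Krt33a, a hair shaft keratin, by -0.75 (adjusted p = 0.47). Among keratins above background, mutant replicate 2 was the lowest mutant array for 7 of 8 members of the inner root sheath and companion layer. It was also the lowest for 11 of 12 hair shaft keratins. Without that array Krt25 differed by -0.51, Krt71 by -0.47 and Krt33a by -0.44. Of the 14 hair follicle markers outside the family, 9 had negative and 5 positive differences with a median of -0.08, and none passed in limma. At an unadjusted p, 0 were higher and 2 lower, against 8.94% of all probe sets in either direction. Tchh (trichohyalin, a protein of the inner root sheath) had -0.52 (adjusted p = 0.47). Among wound keratins, Krt6a read 8.54, 8.38 and 8.61 in control and 8.09, 7.99 and 8.0 in mutant epidermis. Its difference of -0.48 (interval -0.67 to -0.30) did not pass adjustment (adjusted p = 0.21). With trend and robust moderation in limma, Krt6a (adjusted p = 0.011) and Krt80 (adjusted p = 0.0481) passed. Krt6b (-0.59), Krt16 (-0.49) and Krt17 (-0.29) did not pass either, and the interval of Krt6b ran from -2.57 to 1.38.

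CFA changed the keratins in both genotypes, mostly downward. In control mice 20 of the 52 were lower in CFA than in naive epidermis, against 14.8% of all probe sets, and 2 were higher, against 11.5%. In mutant mice 15 were lower, against 13.1%, and 5 were higher, against 12.9%. The median over the 52 was -0.22 in controls and -0.13 in mutants, while the medians over all probe sets were 0.03 and 0.04. The comparisons share no array, and 14 keratins were lower in both, which is 70.0% of the control calls and 93.3% of the mutant calls. The same overlap over all probe sets was not counted, so it is not shown to be particular to keratins. The number above background on all 3 arrays of a group was 38 in CFA control and 39 in CFA mutant epidermis. Markers of other cell types also moved. Of 7 sweat gland markers, 3 of which were below background on all epidermis arrays, 1 was higher and 2 lower in controls and 3 lower in mutants, and their mean log2 signal was 5.13 to 5.33 on naive and 4.52 to 4.62 on CFA arrays. Of 6 markers of Langerhans cells, the dendritic cells of the epidermis, all above background, 5 were higher in controls, where their mean went from 7.38 to 7.46 up to 7.80 to 7.88. In mutants 0 of the 6 passed in limma, none at an unadjusted p either, with means of 7.15 to 7.37 and 7.04 to 7.38. Between CFA groups 0 of the 6 passed, against 0.179% of all probe sets. At an unadjusted p under 0.05, 5 were lower in mutants, against 8.96% of all probe sets in either direction. The part of these cells in the keratin values was not tested.

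**Figure D1:**
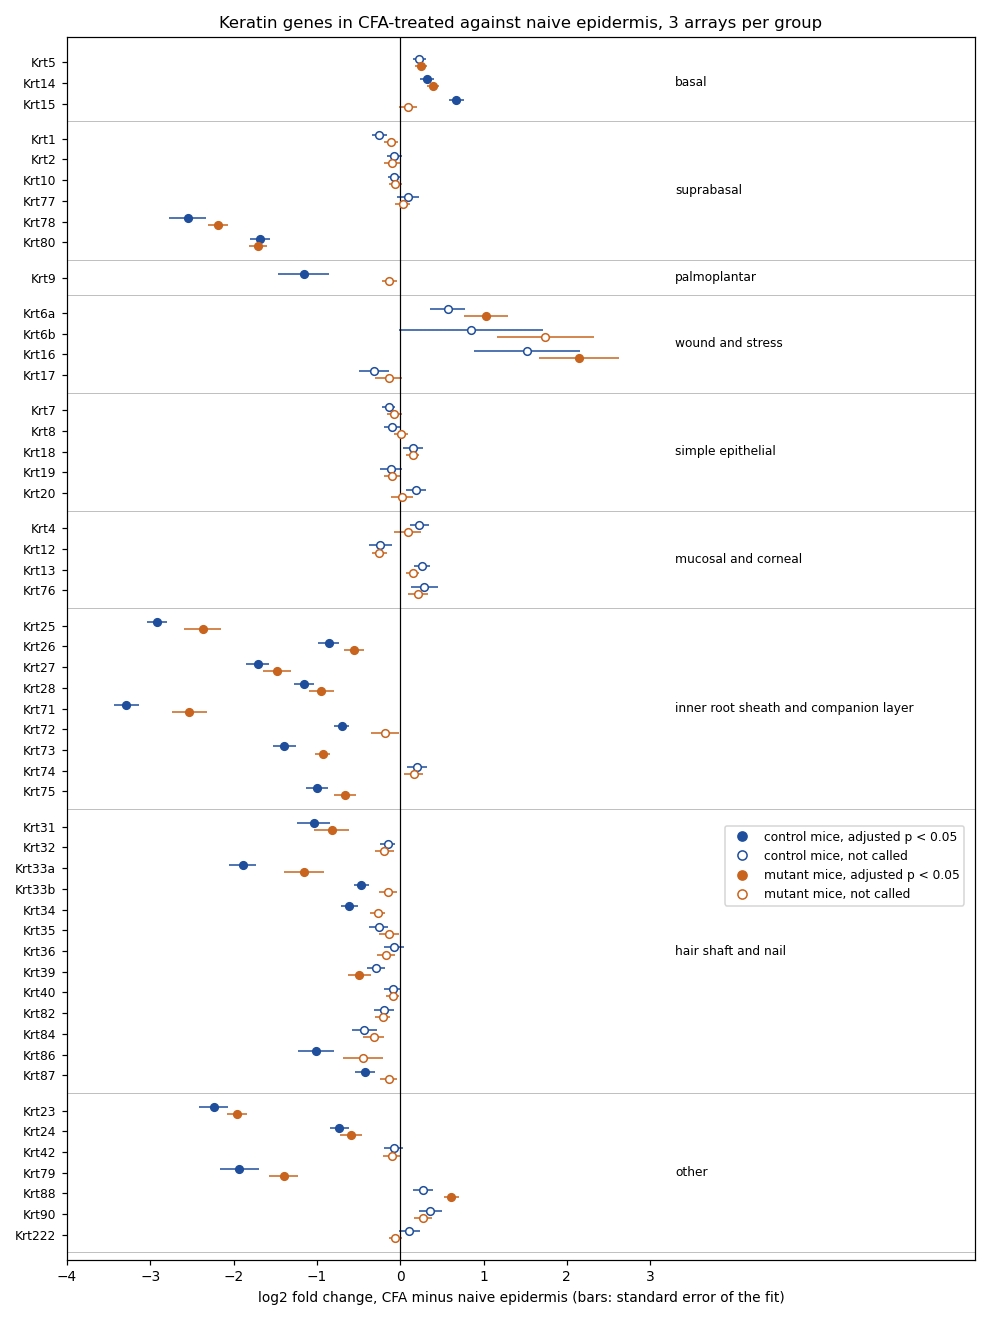
Log2 fold change of each of the 52 keratins in CFA against naive epidermis, in control mice (blue) and mutant mice (orange), with the standard error of the fit as bars; filled points passed an adjusted p of 0.05 in limma. The longest falls are those of Krt71 and Krt25 in the inner root sheath group, at -3.29 and -2.92 in controls, and the points to the right of 0 with the widest bars are Krt6b and Krt16.

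Of the 9 keratins of the inner root sheath and companion layer, 8 were lower after CFA in control mice and 7 in mutant mice. Their promoters are shown first, since these genes lie in the type I cluster (Krt25 to Krt28) and the type II cluster (Krt71 to Krt75). Each line gives the 250 bases before the annotated start, read 5′ to 3′ on the strand of the gene, from RefSeq (GRCm38.p6). The capitals mark matches to TATAAA, and in Krt25 also to the STAT motif TTCNNNGAA. Krt78, a suprabasal keratin that fell too, is shown beside them and holds none of the motifs searched.
Krt71, chr15:101743098-101743347, minus strand: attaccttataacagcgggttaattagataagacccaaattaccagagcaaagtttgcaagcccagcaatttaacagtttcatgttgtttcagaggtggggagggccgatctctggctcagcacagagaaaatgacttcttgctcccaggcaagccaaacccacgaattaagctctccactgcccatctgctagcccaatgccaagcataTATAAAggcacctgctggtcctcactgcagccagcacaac
Krt73, chr15:101802361-101802610, minus strand: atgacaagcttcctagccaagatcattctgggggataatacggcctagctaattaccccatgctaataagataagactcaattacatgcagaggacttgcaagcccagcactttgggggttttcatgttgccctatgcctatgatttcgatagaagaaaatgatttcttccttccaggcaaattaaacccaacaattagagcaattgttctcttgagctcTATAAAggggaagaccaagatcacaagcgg
Krt25, chr11:99322952-99323201, minus strand: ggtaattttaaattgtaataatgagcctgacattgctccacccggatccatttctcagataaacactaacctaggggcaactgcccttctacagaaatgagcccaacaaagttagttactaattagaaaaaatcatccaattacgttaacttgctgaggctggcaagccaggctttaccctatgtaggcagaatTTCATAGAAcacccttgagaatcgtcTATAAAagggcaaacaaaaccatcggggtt
Krt78, chr15:101954288-101954537, minus strand: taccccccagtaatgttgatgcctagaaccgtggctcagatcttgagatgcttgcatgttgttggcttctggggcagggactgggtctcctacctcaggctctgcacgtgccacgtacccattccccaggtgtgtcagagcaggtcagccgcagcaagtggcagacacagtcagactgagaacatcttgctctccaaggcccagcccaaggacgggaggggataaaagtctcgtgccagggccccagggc
The table of promoters held 36 of the 52 genes in 37 windows, and the other 16, among them Krt1, Krt6a, Krt6b, Krt16 and Krt17, were not matched. TATAAA, on either strand, was in 17 of the 37 windows (45.9%), against 12.4% of 32851 windows of all genes. It was in all but 1 of the 8 windows of the inner root sheath and companion layer group, Krt75 being the exception, and in 6 of the 9 hair shaft windows. In Krt25, Krt26, Krt28 and Krt73 a match began 30 bases before the start, and in Krt71 40 bases before it. The match in Krt27 began 15 bases before the start, and the only one in Krt72 203 bases before it, on the opposite strand. The exact letters were searched, so near matches were not counted, such as ataaaa close to the start in Krt75 and Krt78. Matches to the AP-1 motif TGANTCA (5.41% of keratin windows, 6.75% of all), TTCNNNGAA (10.8% and 7.02%), the AP-2 motif GCCNNNGGC (13.5% and 13.7%) and the KLF motif CCACACCC (10.8% and 3.2%) were in 2, 4, 5 and 4 of the 37 keratin windows. A match of letters is a description of the sequence and no evidence of binding.

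Krt71, the type II keratin of the inner root sheath, read 8.78, 8.67 and 8.59 in naive control and 5.53, 5.59 and 5.03 in CFA control epidermis. In mutant mice it read 8.28, 7.43 and 8.13 in naive and 5.21, 5.58 and 5.47 in CFA epidermis. The naive and CFA arrays were thus far apart in both genotypes, and the fall was 3.29 on the log2 scale in controls (log2 fold change -3.29 ± 0.15, SE, adjusted p = 1e-06 from limma), or 9.81-fold, and 5.77-fold in mutants (-2.53 ± 0.21, adjusted p = 7.6e-05). Krt25, a type I keratin of the same sheath, went from 8.79, 8.47 and 8.50 to 5.53, 5.82 and 5.64 in controls (-2.92 ± 0.12, adjusted p = 6.7e-07). In mutants it went from 8.22, 7.21 and 7.94 to 5.45, 5.35 and 5.44 (-2.37 ± 0.22, adjusted p = 0.00014). Krt27, another type I sheath keratin, was 3.27-fold lower in controls and 2.78-fold lower in mutants, and Krt73, a type II sheath keratin, 2.62-fold and 1.91-fold lower. The CFA control mean of Krt73 was 4.70, which is -0.03 relative to background, with 2 of 3 arrays above it. Krt75, the type II keratin of the companion layer, was 2.01-fold lower in controls and 1.58-fold lower in mutants, and Krt72, found in the sheath cuticle, 1.63-fold lower in controls with -0.18 in mutants (adjusted p = 0.48). Krt26 and Krt28 dropped under background on all CFA arrays, so only bounds can be given: Krt26 was lower by at least 1.34-fold in controls and 1.16-fold in mutants, and Krt28 by at least 1.89-fold and 1.49-fold. Krt74, the remaining member, was below background throughout. With the 2 bounds in place of the fits, the median of the 9 was -1.0 in controls and -0.66 in mutants.

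Of the 13 hair shaft keratins, 6 were lower in controls and 3 in mutants. Krt33a, a type I hair keratin, read 7.16, 7.15 and 7.0 in naive control and 5.31, 5.49 and 4.83 in CFA control epidermis, a change of -1.89 ± 0.16 (adjusted p = 3.2e-05). In mutants it read 6.55, 5.75 and 6.77 in naive and 5.45, 5.17 and 5.0 in CFA epidermis, a change of -1.15 ± 0.24 (adjusted p = 0.0093). Krt31, which pairs with type II keratins in the shaft cortex, was 2.05-fold lower in controls and 1.76-fold lower in mutants, where the call was lost in 5 of 15 alternatives. Krt34 (-0.61), Krt33b (-0.47) and Krt87 (-0.42) passed in controls and had -0.27, -0.15 and -0.14 in mutants, which did not pass, and the call for Krt87 was lost in 8 of 15 alternatives, with adjusted p up to 0.129. Krt86 was at least 1.53-fold lower in controls. Krt39 passed in mutants (adjusted p = 0.038) while lying under background on the arrays of both groups, so that no fold is given, and the call was lost in 7 of 14 alternatives. All 13 had negative differences in each genotype. Krt33a and Krt33b are close copies, as are Krt6a and Krt6b, and how far their probes share transcripts was not tested here.

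Other genes of the hair follicle moved with these keratins. Of 14 hair follicle markers measured outside the family, 14 were above background on all naive control arrays and 11 on all CFA control arrays, although the methods describe glabrous skin, which is known as hairless. In controls 8 of the 14 were lower and 1 higher after CFA, against 14.8% and 11.5% of all probe sets. In mutants 7 were lower, against 13.1%. Krtap8-1, a keratin-associated protein of the hair shaft, was 3.94-fold lower in controls, S100a3, a calcium-binding protein of the hair cuticle, 4.19-fold lower, and Tchh 4.02-fold lower. The mean log2 signal of the 14 was 6.40 to 6.60 on naive control, 6.26 to 6.50 on naive mutant, 5.69 to 5.84 on CFA control and 5.72 to 5.74 on CFA mutant arrays. The lowest naive mutant value, 6.26, was that of replicate 2. Whether the number of follicles in the samples had a part in the fall of the keratins was not tested. The hair follicle list as drawn up shares Lhx2, Msx2, Foxn1, Hoxc13 and Gata3 with the list of keratin gene regulators below, and Tchh with that of keratin partners. The measured keratinocyte markers share Trp63 with the regulators and Dsp and Sfn with the partners.

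**Figure D2:**
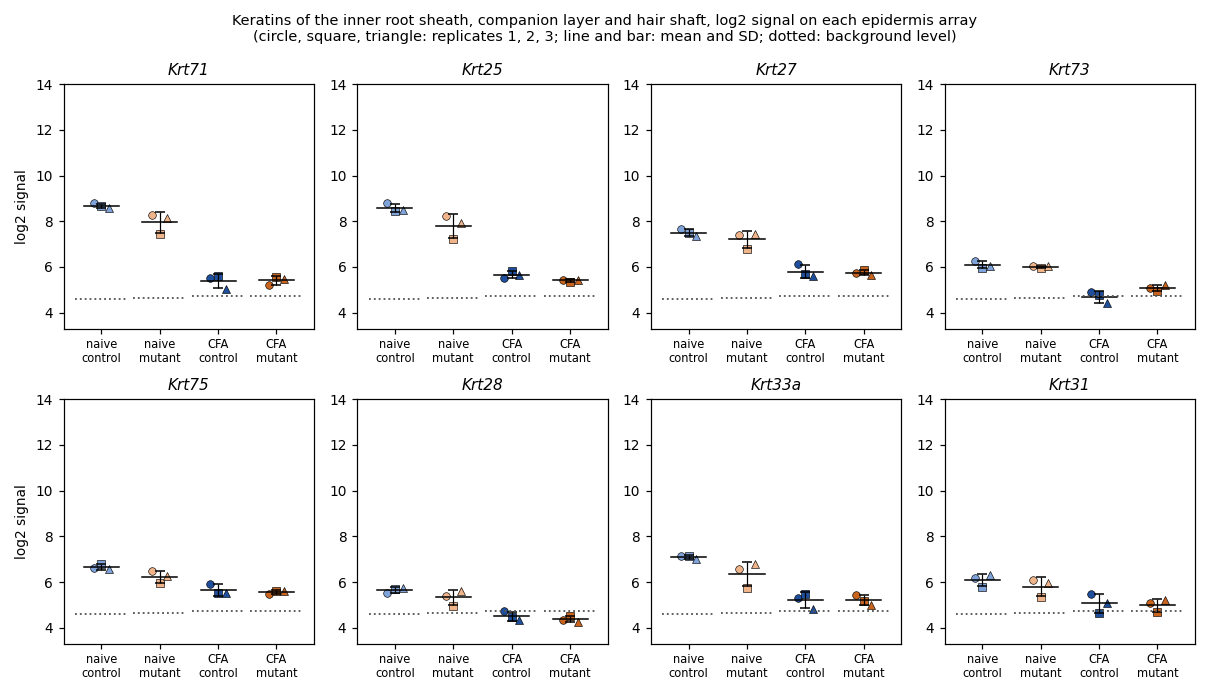
Log2 signal of 8 keratins of the inner root sheath, companion layer and hair shaft on each epidermis array, 3 arrays per group, with the group mean and SD and the mean background level as a dotted line. Every naive array lies above every CFA array of the same genotype in these panels, and in the naive mutant group the square (replicate 2) is the lowest point in all 8 panels.

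Of the 6 suprabasal keratins, Krt78 and Krt80 fell after CFA in both genotypes, and the abundant Krt1, Krt2 and Krt10 did not pass in either. Krt10 changed by -0.07 in controls (interval -0.25 to 0.12) and -0.06 in mutants (-0.24 to 0.13). Krt2 changed by -0.07 and -0.10, and Krt1 by -0.25 in controls (adjusted p = 0.068) and -0.11 in mutants. All 3 stayed within 0.25 of their naive means. Krt78, a type II keratin of differentiating layers, read 9.90, 10.04 and 10.08 in naive control and 7.84, 7.68 and 6.85 in CFA control epidermis, a change of -2.55 ± 0.22 (adjusted p = 4.2e-05). In mutants it read 10.06, 10.11 and 9.97 in naive and 8.03, 7.95 and 7.57 in CFA epidermis (-2.19 ± 0.12, adjusted p = 7.3e-06). Krt80, a type II keratin found near desmosomes, was 3.20-fold lower in controls and 3.28-fold lower in mutants. No array of the CFA groups reached the naive range for Krt78 or Krt80. Krt77, a dim type II keratin here, had 0.09 and 0.03. Of the 22 keratinocyte markers outside the family, 5 were higher and 11 lower in controls, against 11.5% and 14.8% of all probe sets. In mutants 6 of these markers were higher and 9 lower, against 12.9% and 13.1%. Their mean log2 signal was 11.10 to 11.17 on naive and 10.53 to 10.82 on CFA arrays, and their part in the keratin values was not tested. None of the 5 simple epithelial or 4 mucosal and corneal keratins passed in either genotype. Krt8 changed by -0.10 and 0.01, Krt18 by 0.15 in each, Krt7 by -0.14 and -0.07 and Krt19 by -0.11 and -0.10.

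Of the 7 keratins placed outside these groups, 3 fell in both genotypes. Krt79, a type II keratin known from the hair canal and sebaceous duct, read 10.06, 10.28 and 10.17 in naive control and 8.68, 7.63 and 8.39 in CFA control epidermis (-1.93 ± 0.23, adjusted p = 0.00027), and was 2.64-fold lower in mutants. Krt23, a type I keratin, read 7.43, 7.19 and 6.83 in naive control and 5.14, 4.97 and 4.62 in CFA control epidermis (-2.24 ± 0.17, adjusted p = 2.1e-05), and was 3.89-fold lower in mutants. Krt24, which was among the brightest, changed by -0.73 in controls (adjusted p = 0.0012) and -0.59 in mutants (adjusted p = 0.012). Krt88 went the other way, from 5.07, 5.15 and 4.91 to 5.59, 5.71 and 5.65 in mutants (0.61 ± 0.09, adjusted p = 0.0014), with 0.27 in controls (adjusted p = 0.14). Krt42, Krt90 and Krt222 passed in neither genotype.

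**Figure D3:**
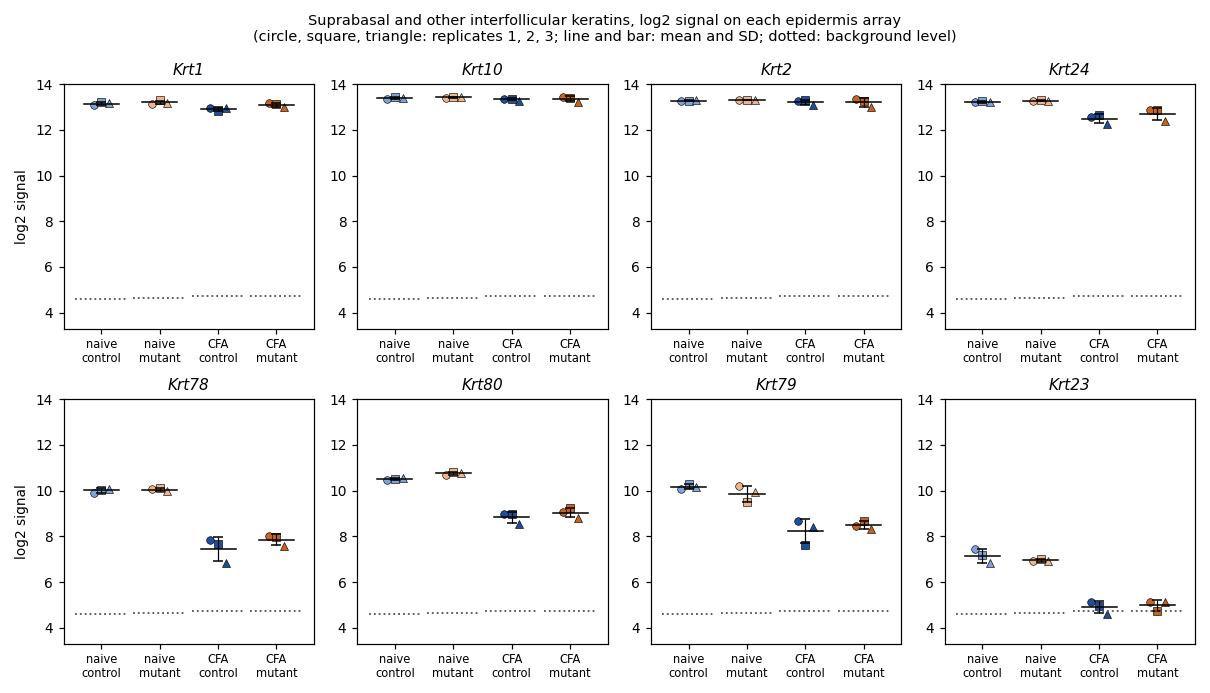
Log2 signal of suprabasal keratins and of Krt24, Krt79 and Krt23 from the group of others on each epidermis array, 3 per group, with mean, SD and the mean background level (dotted). Krt1, Krt10 and Krt2 stay between 12.81 and 13.45 in all groups, whereas Krt78, Krt80, Krt79 and Krt23 drop in both CFA groups.

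Basal keratins were slightly higher after CFA, with 2 of 3 called in each genotype. Krt14 read 12.44, 12.40 and 12.44 in naive control and 12.69, 12.83 and 12.73 in CFA control epidermis (0.32 ± 0.08, adjusted p = 0.021), and 12.34, 12.39 and 12.38 in naive mutant and 12.68, 12.82 and 12.77 in CFA mutant epidermis (0.39 ± 0.07, adjusted p = 0.0057). Every CFA array was above every naive array, although the control call was lost without naive control replicate 1, 2 or 3 or CFA control replicate 2, with adjusted p of 0.057 to 0.0761, and with a replicate block (adjusted p = 0.0632). Krt5, its type II partner, changed by 0.23 in controls (adjusted p = 0.067) and 0.25 in mutants (adjusted p = 0.037), and the mutant call was lost in 8 of 15 alternatives. Krt15, a type I keratin of basal and follicle bulge cells, read 8.71, 8.72 and 8.63 in naive control and 9.38, 9.42 and 9.26 in CFA control epidermis (0.67 ± 0.09, adjusted p = 0.00049). In mutants it read 8.59, 8.94 and 8.58 in naive and 8.71, 8.76 and 8.90 in CFA epidermis, so that the groups overlapped (0.09 ± 0.11, adjusted p = 0.61).

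Of the 4 wound and stress keratins, Krt16 and Krt6a rose in mutants and none passed in controls, and arrays of a group spread widely. Krt16, a type I keratin known to be induced in wounded epidermis, read 9.03, 7.79 and 9.20 in naive control and 10.13, 8.75 and 11.69 in CFA control epidermis. In mutants it read 8.35, 8.34 and 7.86 in naive and 9.47, 9.87 and 11.66 in CFA epidermis. The control groups overlapped (1.52 ± 0.64, adjusted p = 0.11), and the mutant groups did not (2.15 ± 0.48, adjusted p = 0.012), a rise of 4.44-fold that was 1.49 on the log2 scale without CFA mutant replicate 3 (adjusted p = 0.00152). The call for Krt16 was lost with trend and robust moderation (adjusted p = 0.0898) and without the moderation of limma (adjusted p = 0.122). Krt6a rose by 1.03 ± 0.26 in mutants (adjusted p = 0.020) and had 0.57 ± 0.21 in controls (adjusted p = 0.073). The call for Krt6a was lost in 7 of 15 alternatives. Leaving out naive mutant replicate 1, 2 or 3 or CFA mutant replicate 2 gave adjusted p of 0.0504 to 0.0611. The adjusted p was 0.0545 with unnamed probe sets included, 0.0814 with trend and robust moderation and 0.144 without the moderation of limma. Krt6b had 0.85 ± 0.86 in controls and 1.74 ± 0.58 in mutants (adjusted p = 0.50 and 0.059), with naive control arrays at 10.09, 7.07 and 10.05. Krt17, often named with them, had -0.32 and -0.14 and stayed at 8.91 to 9.73 on all 12 arrays.

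The arrays low for Krt6b and Krt16 were low together. In each of the 4 epidermis groups the same array was lowest for Krt6b and Krt16, and in 3 of the 4 also for Krt6a, while Krt17 shared it in 2. S100a8 and S100a9, which form the calprotectin of neutrophils and of stressed keratinocytes, were lowest on that same array in 4 of the 4 groups, an observation made after their values were seen. S100a8 read 8.23, 5.22 and 8.63 in naive control, 8.21, 5.99 and 4.94 in naive mutant, 9.36, 8.08 and 11.76 in CFA control and 7.87, 7.94 and 11.07 in CFA mutant epidermis. Ly6g, a defining neutrophil marker, was below background on all 12 epidermis arrays, as was Csf3r, so that 4 of the 6 neutrophil genes measured were above it on all naive control arrays. The mean of the 6 was 4.93 to 6.01 in naive control, 4.76 to 5.81 in naive mutant, 5.45 to 6.94 in CFA control and 5.67 to 6.63 in CFA mutant epidermis. Their part in the wound keratin values was not tested.

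Krt9, the type I keratin of palm and sole skin, read 11.72, 11.89 and 11.99 in naive control and 11.58, 10.34 and 10.20 in CFA control epidermis, a change of -1.16 ± 0.31 (adjusted p = 0.022). In mutants it read 11.99, 12.08 and 12.01 in naive and 11.93, 12.02 and 11.74 in CFA epidermis (-0.13 ± 0.09, interval -0.34 to 0.07, adjusted p = 0.32). The control fall lay in CFA control replicates 2 and 3. It was -1.60 without replicate 1, and the call was lost in 7 of 15 alternatives. Leaving out naive control replicate 2 or 3 or CFA control replicate 2 or 3 gave adjusted p of 0.058 to 0.0726. The adjusted p was 0.0647 with unnamed probe sets included, 0.126 with trend and robust moderation and 0.168 without the moderation of limma.

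**Figure D4:**
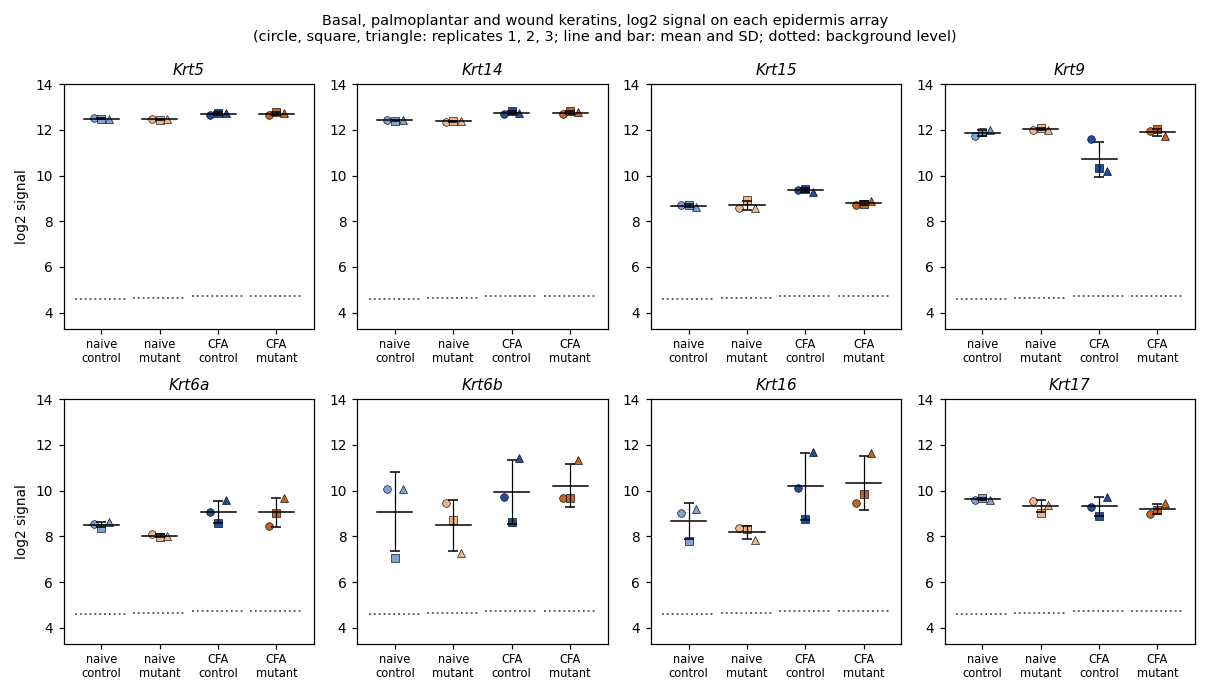
Log2 signal of basal, palmoplantar and wound keratins on each epidermis array, 3 per group, with mean, SD and the mean background level (dotted). Krt5 and Krt14 are tightly grouped, CFA control replicate 1 stands above the other 2 arrays of its group for Krt9, and Krt6b and Krt16 spread over as much as 3 log2 units within a group.

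The difference between genotypes in the response to CFA was tested directly, as mutant response minus control response over the 12 epidermis arrays. None of the 52 passed adjustment, against 0.0256% of all probe sets, and 8 were higher and 1 was lower at an unadjusted p under 0.05, against 8.26% of all probe sets in either direction. The values were 1.03 ± 0.37 for Krt9 (interval 0.24 to 1.82, adjusted p = 0.48), -0.58 ± 0.14 for Krt15 (adjusted p = 0.25), 0.77 ± 0.28 for Krt71 (adjusted p = 0.49) and 0.74 ± 0.32 for Krt33a (adjusted p = 0.57). The CFA means of Krt71 were 5.38 in control and 5.42 in mutant epidermis, and those of Krt33a 5.21 in each, all close to background. Their values here thus restate the naive differences of -0.73 and -0.75, which were -0.47 and -0.44 without naive mutant replicate 2. Krt6b (0.89 ± 1.21) and Krt16 (0.63 ± 0.93) had intervals from -1.72 to 3.49 and from -1.37 to 2.64, so differences of several fold either way were within their error. Calls made in a single genotype, such as those of Krt6a, Krt16, Krt88, Krt15 and Krt72, were therefore not shown to differ between genotypes. Without CFA control replicate 1, the value for Krt9 was 1.47 and passed (adjusted p = 0.00791).

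Within CFA epidermis, 0 of the 52 differed between mutant and control mice after adjustment, against 0.179% of all probe sets, while an unadjusted p under 0.05 was reached by 2 that were higher and 2 that were lower, against 8.96% of all probe sets. Krt15 was the nearest to the threshold. It read 8.71, 8.76 and 8.90 in mutant and 9.38, 9.42 and 9.26 in control epidermis, a difference of -0.56 ± 0.10 (interval -0.78 to -0.35, adjusted p = 0.072). It passed in 5 of 15 alternatives, with adjusted p from 0.0204 to 0.414 over all of them, and without CFA mutant replicate 3 among them (adjusted p = 0.0499). Krt9 had a difference of 1.19 ± 0.30 (2.28-fold, interval 0.51 to 1.87, adjusted p = 0.23). It passed in 4 of 15 alternatives, among them the one without CFA control replicate 1 (1.63, adjusted p = 0.00463). The value was 1.01 and 0.93 without replicate 2 or 3 of that group. Krt78 (0.40), Krt73 (0.37) and Krt6b (0.29) followed in size, with adjusted p of 0.71, 0.44 and 0.95. The basal pair had narrow intervals, -0.21 to 0.19 for Krt5 and -0.20 to 0.21 for Krt14, whereas that of Krt16 ran from -1.44 to 1.73.

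Proteins that bind or anchor keratin filaments were read beside the family. Of 23 measured, 4 were higher and 12 lower in controls after CFA, and 4 were higher and 7 lower in mutants. The shares of all probe sets, to be set beside this list and those that follow, were 11.5% higher and 14.8% lower in controls. In mutants they were 12.9% and 13.1%. Those lower in both genotypes included Rptn (repetin, a cornified envelope protein; -5.37 in controls and -5.08 in mutants) and Flg2 (filaggrin 2, which bundles keratin in the outer layers; -2.89 in controls, adjusted p = 2.3e-05). Hspb1, a small heat shock protein that binds keratins, changed by -1.29 and -1.04. Those higher in both included the linkers of the basal hemidesmosome, Dst (dystonin; 0.68 and 0.82) and Plec (plectin; 0.40 and 0.61), while Dsp (desmoplakin, the linker at desmosomes) had 0.00 and 0.06. Of 33 transcription factors known to act on keratin genes, 9 were higher and 13 lower in controls and 8 higher and 9 lower in mutants. Jun, a subunit of AP-1, had -1.93 and -1.53, Klf4, a factor of late differentiation, -1.01 and -0.80, Trp63, a factor that sets epidermal identity, 0.47 and 0.54, and Stat3 0.90 and 0.70. Of 16 other intermediate filament genes, Vim (vimentin) was higher by 0.43 and Lmna (lamin A) changed by -0.41 in controls, and Lmnb1 (lamin B1) was higher by 0.27 in mutants.

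On the DRG arrays, 22 of the 52 keratins were above background on all 6 arrays and 21 on none. The brightest was Krt222, a short keratin-like type I gene, at 8.20, 8.09 and 8.13 in control and 8.23, 8.38 and 7.99 in mutant DRGs. It lay 2.15 to 2.60 above background there, at a median percentile of 77.3, while in epidermis it was above background on 5 of 12 arrays, at a median percentile of 36.5. Krt33b, Krt8 and Krt87 were at least 1 log2 unit above background on all DRG arrays, by 1.34 to 1.70, 1.18 to 1.36 and 1.09 to 1.42. Krt80 and Krt34 reached 1.07 and 1.05 on their highest array. Krt8, for example, read 7.10, 7.12 and 7.21 in control and 7.18, 7.14 and 7.16 in mutant DRGs, all within a narrow range. The wound keratins Krt6a, Krt6b, Krt16 and Krt17 and the palmoplantar Krt9 were below background on all 6 DRG arrays.

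Some epidermal keratins were higher on 2 of the 6 DRG arrays, which were picked after their values were seen, so no test is given. Krt10 read 6.39, 6.40 and 7.42 in control and 8.20, 6.73 and 6.69 in mutant DRGs, so that control replicate 3 was 0.88 and mutant replicate 1 was 1.66 above the median of the other 4 arrays. Krt2 was 0.63 and 1.46 above that median on the same arrays, Krt1 0.58 and 1.36, Krt24 0.33 and 0.86 and Krt14 0.38 and 0.39. Krt1 exceeded background on those 2 arrays and on no other. These are among the brightest keratins of the epidermis, whereas other keratins bright there did not follow on both arrays. Krt5 was 0.03 and 0.34 above the median, Krt80 differed from it by -0.06 and -0.17, Krt79 by -0.08 and 0.23, Krt17 by -0.13 and 0.10, Krt16 by -0.12 and 0.01 and Krt6b by -0.08 and 0.05. Of the 22 keratinocyte genes outside the family, 7 exceeded the other 4 arrays on both, as did 11 of the 52 keratins and 6.15% of all probe sets. The 11 keratins were not all bright in epidermis. They also held Krt9 (0.13 and 0.46), Krt27 (0.12 and 0.13) and Krt8 (0.08 and 0.05). Krt18 (0.11 and 0.25), Krt32 (0.10 and 0.14) and Krt4 (0.09 and 0.11), among them too, averaged 0.72, 0.42 and -0.06 relative to background in naive control epidermis. Krt9, Krt4 and Krt32 were below background on all DRG arrays. Among the 7 keratinocyte genes, Lor (loricrin, of the cornified layer) was 0.36 and 0.69 and Dsp 0.17 and 0.66 above the median. Others went the other way, such as Itga6 (-0.23 and -0.24) and Itgb4 (-0.09 and -0.33). The median excess of the 22 was 0.02 on control replicate 3 and 0.18 on mutant replicate 1. Whether skin had entered these DRG samples was not tested.

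**Figure D5:**
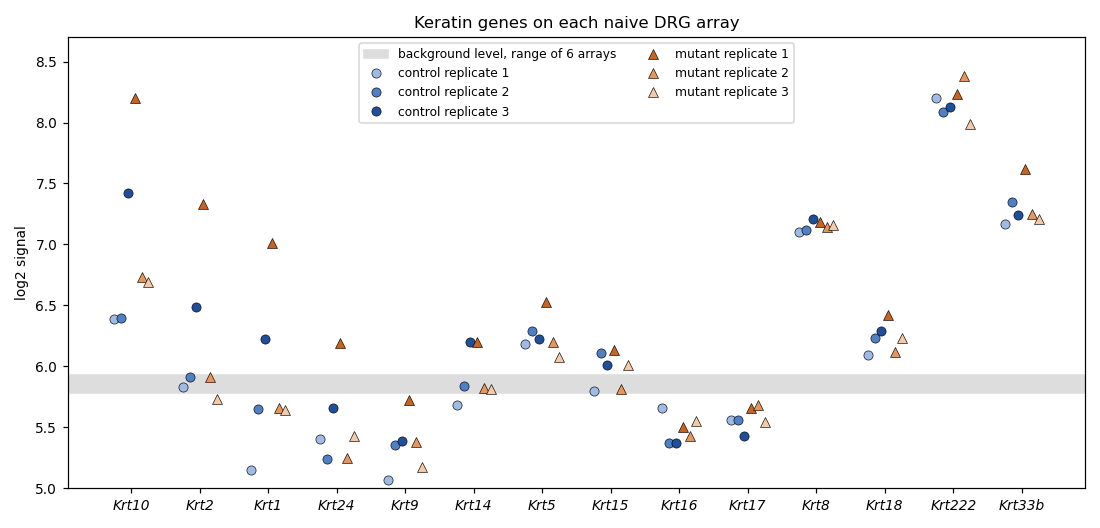
Log2 signal of 14 keratins on each of the 6 naive DRG arrays (circles control, triangles mutant), with the range of the background level over the arrays in grey. Control replicate 3 and mutant replicate 1 stand above the other 4 arrays for Krt10, Krt2, Krt1, Krt24 and Krt14, and the 6 arrays lie close together for Krt8 and Krt222.

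No keratin passed the test between mutant and control DRGs. After adjustment 0 of the 52 passed, against 0.0726% of all probe sets, while an unadjusted p under 0.05 was reached by 5 that were higher and 0 that were lower, against 7.15% of all probe sets. The difference of Krt10 was 0.47 ± 0.42 (interval -0.48 to 1.41, adjusted p = 0.80) and became -0.03 without mutant replicate 1. Of keratins above background on all arrays of a group, Krt33a (0.23), Krt36 (0.21), Krt34 (0.20) and Krt87 (-0.14) followed, with adjusted p of 0.68, 0.68, 0.70 and 0.76 from limma. Krt222 differed by 0.06 (interval -0.17 to 0.29) and Krt8 by 0.02 (-0.13 to 0.17).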

How the data were processed

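RNA (100 ng per sample) from the epidermis of hindpaw skin separated with dispase and from lumbar DRGs had been hybridised to Mouse Gene 1.0 ST arrays. The authors deposited log2 signals, background-corrected, normalized and summarised per probe set by robust multi-array analysis (RMA), and used Genomics Suite 3 (Partek) with an ANOVA and a 2-fold threshold. The sources used here name no genome build. RMA pulls arrays to a common distribution, so changes are relative to the other probe sets.

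Gene names came from the platform annotation, and 1621 probe sets with several genes named none. Each comparison was fitted with limma 3.58.1 (R 4.3.3; lmFit, eBayes, two-sided) over 23410 probe sets, with only its own groups in the fit and Benjamini-Hochberg adjustment, and was called at an adjusted p of 0.05. Intervals are at the 95% level of that fit. The script was tested on simulated data. Where a group was under background on all 3 arrays, folds are given as bounds, computed against the background level of those arrays. Where only some arrays of a group were under it, as for Krt23, Krt31 and Krt73 after CFA, the fold is that of the signals and lies near the floor. Tables were drawn with Python 3.11.15, pandas 2.3.3, numpy 2.4.6 and matplotlib 3.10.9. The number of arrays limits the precision.

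Named with values were the keratins called in any of the 6 comparisons, the 5 with the widest change above background where fewer were called, the epidermal and simple epithelial keratins, and those at least 1 log2 unit above background in DRGs. The members, lists and this rule were chosen with earlier results of these data known. Promoters came from RefSeq (GRCm38.p6), and the identity of keratin proteins was not analysed here. Alternatives covered normalization, dim and unnamed probe sets, moderation, array weights, a replicate block, 1 fit per tissue, thresholds and leaving out each array.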

Additional observations from a re-analysis of the deposited data

How the results depend on the processing

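The direction of change and the side of the threshold were kept in 882 recomputed values of named keratins, while 56 lost a call, 10 gained one and 6 changed sign. The difference of Krt6b between genotypes ran from -1.6 to 0.01 in naive epidermis when each array was left out (0.01 without naive mutant replicate 3), and from -0.35 to 1.04 in CFA epidermis (-0.35 without CFA control replicate 2, -0.26 without CFA mutant replicate 3). The difference between responses of Krt16 ran from -0.09 to 1.38 (-0.09 and -0.03 without the same 2 CFA arrays), and the DRG difference of Krt10 from -0.03 to 0.81 (-0.03 without mutant replicate 1). No keratin was called between genotypes in naive epidermis, but 2 were with trend and robust moderation (Krt6a and Krt80). In CFA epidermis the count of 0 became 1 with trend and robust moderation (Krt15), 2 with array weights and 2 with all epidermis groups in 1 fit (Krt9 and Krt15 in each), and 1 at 2-fold with an unadjusted p, and was 0 to 1 when each array was left out (Krt9 without CFA control replicate 1, Krt15 without CFA mutant replicate 3). After CFA the count of 22 in controls became 14 at 2-fold with an adjusted p, and the count of 20 in mutants became 11 with ordinary ANOVA, 10 at 2-fold with an adjusted p and 11 at 2-fold with an unadjusted p. For the difference between responses, 0 became 1 at 2-fold with an unadjusted p and was 0 to 1 when each array was left out, the 1 being Krt9 without CFA control replicate 1. The DRG count was 0 throughout. The cause of these changes was not tested.

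Replicate numbers were not shown to pair the arrays: same-numbered arrays correlated at -0.236 to 0.233 in their deviations from the group means. With the replicate block, 2 keratins were called between genotypes in CFA epidermis (Krt9 and Krt15), 23 in the control and 19 in the mutant response to CFA, and 0 in the other comparisons. The block ended the calls of Krt14 in controls (adjusted p = 0.0632) and Krt5 in mutants (adjusted p = 0.0747). With 3 arrays per group, differences of several fold in Krt6b and Krt16 between genotypes were within their error. Signals under background give bounds only.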
